A study of Triticum aestivum with 4 samples.

Results

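The probe sets described here are the 59 that share the cluster number of TaAffx.128414.1.A1_x_at, a group of related sequences on the Affymetrix wheat array, and 4 others assigned to the same gene as that probe set, rbcl (LOC100049018). They make 63 of the 61290 probe sets in the deposited table. The choice was by identifier and annotation without a signal cutoff, with earlier results of these data known. The annotation assigns 28 of them to rbcl, 24 inside the cluster and 4 outside it (Ta.14567.2.S1_at, Ta.24976.1.S1_x_at, Ta.3807.1.A1_at and TaAffx.128896.17.S1_s_at). The other 35 members of the cluster carry no gene name. RNA came from flag leaves of the wheat cultivar TAM 107, grown in the field, potted about a week before flowering and sampled about 10 days after pollination. The 2 control arrays came from plants under normal conditions, and the 2 heat arrays from plants moved to a growth chamber and held for 1 h at 40 °C. Whether control plants went into a chamber too is not stated, so an effect of the transfer cannot be told apart from one of temperature. Nor is it stated whether both arrays of a group came from different plants, and each p-value rests on array-to-array spread that could be purely technical.

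Rubisco, the enzyme that fixes carbon dioxide in the Calvin cycle, is built of large and small subunits. In plants rbcL, the gene of the large subunit, lies in the plastid genome, while the small subunits come from a family of nuclear genes. Leaf cells of wheat make very large amounts of the enzyme, and Rubisco activase, a heat-sensitive helper protein, keeps it active. The RefSeq gene table of the wheat assembly IWGSC CS RefSeq v2.1 places LOC100049018, whose synonym there is rbcl, on a nuclear chromosome as a protein-coding gene. That table holds 67 mitochondrial genes and 0 plastid genes. The annotation and the gene table therefore do not settle whether these probe sets report the plastid gene, a nuclear copy of it or another transcript, and rbcl is used below only as the annotation's name. The identifiers separate the probe sets by likely specificity: an ending in _x_at or _s_at marks probes that can match several transcripts, and plain _at marks probes chosen to match 1 transcript. Of the 63 members, 47 end in plain _at, 13 in _x_at and 3 in _s_at.

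The values are the authors' MAS5 signals, a brightness per probe set on a linear scale in arbitrary units. With 2% of probe sets trimmed at each end, the mean signal was 500.1 on each array. Median signals were 82.7 and 79.1 in control and 77.0 and 72.1 in heat. Nuclear photosynthesis genes marked the tissue as leaf: signals of PsbO and PsbP (photosystem II), petC (cytochrome b6f complex) and PRK (Calvin cycle) ranged from 31570 to 55351 over the 4 arrays. Changes are log2 fold changes, heat minus control, from a limma fit over the 61115 probe sets that are not array controls, with no brightness filter. A probe set was called higher or lower at a Benjamini-Hochberg adjusted p below 0.05 over all of them. In this fit 3917 probe sets were higher and 5978 lower in heat, and the median change over all was -0.12. The share of rises among all calls was 39.6%, and 52.1% after median centring.

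The 63 members did not share a direction in heat. Signals of 3 rose, those of 10 fell, and 50 did not pass the test. The share called among all probe sets was 16.2% (6.41% higher and 9.78% lower), and among the members 20.6%. The median log2 fold change was -0.19 over the members and -0.12 over all probe sets. The members' median was nearer 0 under other scalings, at -0.12 with quantile normalization, -0.11 with cyclic loess and -0.07 with median centring, and -0.05 with an offset of 64. In the same order, the median over all probe sets was -0.04, -0.01, -0.00285 and -0.05. All 3 rises and 9 of the 10 falls lay among the 15 brightest members, and they divided by brightness and ending. Among the 8 brightest members, which all end in _x_at or _s_at, 3 rose and 3 fell (52.7% of all probe sets of that class and ending were called). Among the next 7, which all end in plain _at, 6 fell and 0 rose (52.9% of all were called). Without control replicate 1 fewer members fell, and the members' median was -0.28. Fewer of all probe sets fell there too, but about as many as without control replicate 2. In that second fit more members fell than without control replicate 1, and their median was -0.17. In each fit that leaves out an array, 1 group is a single array, assumed to vary like the other group, so a call kept there is weak support. These calls rest on the variance that limma pools by brightness: with eBayes lacking the intensity trend 0 members passed (13 at an unadjusted p below 0.05), and 0 of all probe sets (12329). With unmoderated t statistics 0 members passed (12 at an unadjusted p below 0.05), and 218 higher and 127 lower of all.

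Calls were rare among dim probe sets. All probe sets were divided into 5 classes of equal size by mean log2 signal, and members filled them unevenly: 13, 11, 18 and 6 members from the dimmest class upward, and 15 in the brightest, where signals start at 577. In the brightest class 12 of 15 members were called, against 52.8% of all probe sets there. With so few members, the 80.0% and 52.8% are given side by side only. In the class just below it 1 of 6 members was called (22.8% of all). In the 3 dimmer classes 0 of 42 members were called in limma, and 4 had an unadjusted p below 0.05. The call shares of all probe sets in those classes were 1.02%, 0.851% and 3.46%. With probe sets below the median brightness left out of the fit, 3 of the 30 remaining members rose and 13 fell. In that fit 37.1% of all probe sets were called, 14.2% higher and 22.9% lower. Signals of different probe sets depend on how well their probes bind, so this order of brightness is not an order of transcript amounts.

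The brightest member of the cluster was TaAffx.128414.219.S1_x_at, which has no gene name. Its signals were 42705 and 45490 in control and 55622 and 55956 in heat. Both heat values lay above both control values, a 1.27-fold rise (log2 0.34 ± 0.05 SE, limma adjusted p = 0.00267). Of the 3 rises, this one alone lost its call under another scaling. Under quantile normalization it stood at log2 0.06 (adjusted p = 0.336) and under cyclic loess at 0.09 (adjusted p = 0.132). Among the leaf genes named above, of similar brightness, PsbO and PsbP were also called higher (log2 0.35 and 0.34). The others, petC and PRK, were not called (log2 0.17 and 0.15).

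The other 2 rises belonged to probe sets assigned to rbcl. Ta.24976.1.S1_x_at, outside the cluster, read 34231 and 38770 in control and 61145 and 58679 in heat. The groups were far apart, with a 1.64-fold rise (log2 0.72 ± 0.07 SE, limma adjusted p = 2.27e-04). On the heat arrays this signal ranked 4 and 7 of all 61290 probe sets, and on the control arrays 86 and 65. TaAffx.128414.1.A1_x_at read 23926 and 27204 in control and 36678 and 39644 in heat. It rose 1.49-fold (log2 0.58 ± 0.07 SE, limma adjusted p = 0.00114), with no overlap between groups. Both rises passed under quantile normalization (log2 0.45 and 0.26) and cyclic loess. The highest signals of the single arrays were 52311 and 52772 in control and 62439 and 62032 in heat, so the top of the scale was higher on both heat arrays.

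Falls were found at nearly the same brightness. TaAffx.128414.215.S1_s_at, without a gene name, read 31797 and 32431 in control and 21077 and 20413 in heat. Replicates lay close together and the groups did not overlap, a 1.55-fold fall (log2 -0.63 ± 0.05 SE, limma adjusted p = 8.19e-05). TaAffx.128414.60.S1_x_at read 12734 and 12344 in control, and 9319 and 7326 in heat. It fell 1.52-fold (log2 -0.60 ± 0.10 SE, limma adjusted p = 0.00592), a call lost without control replicate 1 (adjusted p = 0.057).

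The largest fall among the 15 brightest members was that of TaAffx.128896.17.S1_s_at, also assigned to rbcl and outside the cluster. It read 11909 and 11049 in control and 5140 and 3591 in heat. The signal fell 2.67-fold (log2 -1.42 ± 0.15 SE, limma adjusted p = 4.34e-04). Within each array, the log2 difference between Ta.24976.1.S1_x_at and this probe set does not depend on a scaling factor of that array. It was 1.67 ± 0.20 in control and 3.80 ± 0.32 in heat (SD, n = 2). The pair was chosen as the called rise and the called fall assigned to rbcl outside the cluster, so this shift is a description, with no test. The 95% intervals of the separate changes were 0.56 to 0.87 and -1.76 to -1.07.

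The other 2 of the 8 brightest, TaAffx.128414.205.S1_x_at and TaAffx.128414.176.S1_x_at, did not pass. The first read 35749 and 36587 in control and 32682 and 25008 in heat (log2 -0.34 ± 0.11 SE, limma adjusted p = 0.0837). Its heat arrays differed from each other by more than the nearer one differed from control. The second read 20801 and 20644 in control and 18956 and 18346 in heat (log2 -0.15 ± 0.05 SE, limma adjusted p = 0.0791). Under quantile normalization, cyclic loess and the filter at the median both were lower past the threshold, at log2 -0.62 and -0.49 under the first of these. After median centring they stood at -0.22 and -0.03 with no call. Among all probe sets of the brightest class with shared endings, 23% were higher and 29.8% lower, with a median log2 fold change of -0.08. The median of the 8 members was -0.25.

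The 7 members that follow in brightness ended in plain _at, with mean signals from 632 to 2104. TaAffx.128414.72.S1_at, assigned to rbcl, read 3193 and 2190 in control and 1307 and 1046 in heat. It fell 2.26-fold (log2 -1.18 ± 0.18 SE, limma adjusted p = 0.00319). TaAffx.128414.102.S1_at, without a gene name, read 2194 and 2110 in control and 753 and 1415 in heat, 2.08-fold lower (log2 -1.06 ± 0.25 SE, limma adjusted p = 0.0242). Its heat arrays stood far apart, yet neither reached the control level. The call was lost without control replicate 1 (adjusted p = 0.144) or control replicate 2 (adjusted p = 0.126).

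Of 3 further falls assigned to rbcl, TaAffx.128414.196.S1_at read 902 and 811 in control and 463 and 472 in heat (1.83-fold, log2 -0.87 ± 0.11 SE, limma adjusted p = 0.00154). TaAffx.128414.146.S1_at read 1001 and 869 in control and 556 and 518 in heat (1.74-fold, log2 -0.80 ± 0.12 SE, limma adjusted p = 0.00281). These had the smallest standard errors of the 6 falls, and they passed under the 3 other scalings. TaAffx.128414.181.S1_at read 3107 and 2264 in control and 1833 and 1522 in heat, 1.59-fold lower (log2 -0.67 ± 0.15 SE, limma adjusted p = 0.0224). That call was lost without control replicate 1 (log2 -0.44) or heat replicate 2 (log2 -0.53).

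TaAffx.128414.152.S1_at, without a gene name, read 1061 and 814 in control and 614 and 621 in heat, 1.51-fold lower (limma adjusted p = 0.0258). It was the least stable of the 10 falls and lost its call under quantile normalization (log2 -0.49), median centring (-0.47) and cyclic loess (-0.44). It also lost it on leaving out the first control array (-0.40), the first heat array (-0.58) or the second heat array (-0.60). The last of the 7, TaAffx.128414.18.S1_at, read 1511 and 1476 in control and 1273 and 1424 in heat and did not pass (log2 -0.15 ± 0.09 SE, limma adjusted p = 0.35). The median of these 7 was -0.80, and that of all plain _at probe sets in the brightest class was -0.08, of which 22.8% were higher and 30.1% lower. In all 7 the second control array also read lower than the first, as in 44.2% of those plain _at probe sets. Without the first control array fewer of the 7 passed and their median was -0.70, and without the second it was -0.90.

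Over the brightest class as a whole, the control and heat values did not overlap in 15 of 15 members, 12 of them lower in heat. Among all probe sets of that class the share without overlap was 82%, and 46.9% were lower without overlap.

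The scaling of the arrays moved the values of bright members. Of the 13 called members, 11 passed under the 3 other scalings (2 higher and 9 lower), and the exceptions were TaAffx.128414.219.S1_x_at and TaAffx.128414.152.S1_at. Under quantile normalization, 2 of all 63 members were higher and 11 lower, and 15.8% of all probe sets were called. The median change over all probe sets moved from -0.12 to -0.00285 with median centring, -0.01 with cyclic loess and -0.04 with quantile normalization. The median of the 8 brightest members moved from -0.25 to -0.56 under quantile normalization, -0.43 under cyclic loess and -0.13 with median centring. That of the next 7 moved from -0.80 to -0.69, -0.65 and -0.68. The sign of each of the 13 called members was the same under every alternative that gave it a value.

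Below the brightest class the only call was TaAffx.128414.130.S1_at, assigned to rbcl. It read 432 and 407 in control and 237 and 131 in heat, 2.38-fold lower (log2 -1.25 ± 0.28 SE, limma adjusted p = 0.0207). The call was lost without control replicate 1 (adjusted p = 0.142) or control replicate 2 (adjusted p = 0.118). Of the other 5 members of its class, TaAffx.128414.137.S1_at had the lowest value (log2 -0.54 ± 0.25 SE) and TaAffx.128414.46.S1_at the highest (0.49 ± 0.31), neither past the threshold. TaAffx.128414.16.S1_at, assigned to rbcl, read 531 and 466 in control and 547 and 395 in heat, so its groups overlapped (log2 -0.10 ± 0.18 SE). On all 6 members of this class the second heat array read lower than the first, as on 52.4% of all probe sets there.

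The dim members gave no usable direction. For 31 of the 63, all 4 signals were below 100. Just short of a call lay TaAffx.128414.126.S1_at, assigned to rbcl, at 217 and 119 in control and 24.8 and 58.0 in heat (log2 -2.08 ± 0.59 SE, limma adjusted p = 0.052). It passed with the filter at the median (adjusted p = 0.0217). The widest values among the members were log2 -3.42 ± 1.16 SE for TaAffx.128414.49.S1_at (67.2 and 50.6 in control, 13.1 and 2.27 in heat) and 2.85 ± 1.03 for TaAffx.128414.53.S1_at (3.24 and 7.05 in control, 35.2 and 33.8 in heat). Neither passed, at adjusted p = 0.0978 and adjusted p = 0.119 in limma. Next highest were TaAffx.128414.83.S1_at (log2 2.27 ± 1.61 SE) and TaAffx.128414.50.S1_at (2.03 ± 1.00), which have no gene name and did not pass. TaAffx.128414.91.S1_at, also unnamed, stood at -0.97 ± 0.39 (limma adjusted p = 0.161). In 4 cases the array carries a plain _at and an _x_at probe set with the same number. Those numbered 147 read nearly alike on every array, for example 18.5 and 18.5 on the second heat array. Those numbered 15 differed, at 8.90 and 95.0 on that array. Those numbered 54 had opposite signs (log2 0.67 ± 1.24 SE and -1.08 ± 1.08 SE). The letter for orientation in the identifier was S in 58 members and A in 5, and 0 pairs differed in that letter alone. Of the A members 1 rose (TaAffx.128414.1.A1_x_at) and 0 fell, and of the S members 2 rose and 10 fell. That is 20% and 20.7% called, against 16.2% of all probe sets.

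Among the 28 probe sets assigned to rbcl, 2 rose, 6 fell and 20 did not pass, with a median log2 fold change of -0.22. That is 28.6% called (7.14% higher and 21.4% lower), against 16.2% of all probe sets (6.41% and 9.78%). Those in the cluster gave 1 rise and 5 falls of 24 (25.0% called), and the 4 outside it 1 rise and 1 fall. The remaining 2 outside, Ta.3807.1.A1_at and Ta.14567.2.S1_at, were dim and overlapping. The first read 59.9 and 57.5 in control and 12.0 and 63.5 in heat, and the second 3.11 and 7.43 in control, with 6.63 on the second heat array and a value below 30 on the first. The 35 unnamed members of the cluster gave 1 rise and 4 falls (14.3% called).

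The assigned probe sets also differed by the GenBank series of the sequence that the annotation lists for them. Of the 13 from the CA series, 8 reached the median brightness of all probe sets (a signal of 69.2), 1 rose and 6 fell. That is 53.8% of the 13 called, against 16.2% of all probe sets and 31.2% of all that reach the median. All of these calls but that of TaAffx.128414.130.S1_at lay in the brightest class, where 52.8% of all probe sets were called. Of the 13 from the BE series, 3 reached it and 0 were called in limma, with 1 at an unadjusted p below 0.05. Mean signals of the BE probe sets ran from 10.1 to 481, and 10 of them lay below 69.2. The remaining 2 were the AY probe set TaAffx.128414.1.A1_x_at, which rose, and the BJ probe set Ta.3807.1.A1_at. The median mean signal was 272 in the CA series and 42.0 in the BE series, and the part of this gap in the calls was not tested.

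Most other probe sets assigned to rbcl were dim. Besides TaAffx.128414.16.S1_at and TaAffx.128414.53.S1_at, the 11 BE members, none of them called, lay between log2 -1.73 (TaAffx.128414.52.S1_at) and 1.46 (TaAffx.128414.47.S1_at). Next to these ends were TaAffx.128414.42.S1_at (log2 -1.23 ± 0.77 SE) and TaAffx.128414.15.S1_x_at (1.18 ± 0.76). Signals of TaAffx.128414.42.S1_at were 173 and 147 in control but 169 and 27.3 in heat, so 1 heat array alone was low. Closer to 0 were TaAffx.128414.37.S1_at (log2 0.61), TaAffx.128414.38.S1_at (0.42), TaAffx.128414.51.S1_at (0.23), TaAffx.128414.40.S1_at (-0.24), TaAffx.128414.44.S1_at (-0.19), TaAffx.128414.56.S1_at (-0.17) and TaAffx.128414.15.S1_at (-0.26). Of the CA series, TaAffx.128414.80.S1_at (log2 0.78), TaAffx.128414.82.S1_at (-1.16), TaAffx.128414.190.A1_at (0.81) and TaAffx.128414.229.A1_x_at (-0.29) had all signals below 100 and no call.

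The cluster is the second largest on the array by number of probe sets. The largest, TaAffx.128418 with 113, gave 13 rises and 14 falls (23.9% called, against 16.2% of all probe sets) and a median log2 fold change of -0.03. TaAffx.143995, with 52, gave 0 rises and 5 falls (9.62% called, median -0.20), and TaAffx.128541, with 44, had 0 probe sets at the median brightness and 0 calls in limma, with 2 at an unadjusted p below 0.05. The 59 related probe sets alone gave 2 rises and 9 falls of 59 (18.6% called, median -0.19). Differences between clusters were not tested. In cluster TaAffx.128896, which holds the rbcl probe set with the largest called fall, 0 of 17 rose and 3 fell (17.6% called), with a median of -0.40. Its summed signal was 159959 and 166157 in control and 153571 and 115893 in heat, so its second heat array was the lowest. The summed signal of the 63 members was 0.464% and 0.471% of the array total in control and 0.458% and 0.435% in heat. The 8 brightest supplied most of it, at 0.430% and 0.443% in control and 0.438% and 0.417% in heat. Of the probe sets assigned to rbcl the share was higher in heat, at 0.161% and 0.167% in control and 0.198% and 0.194% in heat. Those of them inside the cluster held 0.0684% and 0.0690% in control and 0.0772% and 0.0808% in heat. Both shares rest mostly on the bright _x_at rises, while 6 assigned probe sets fell. Ta.24976.1.S1_x_at and TaAffx.128414.1.A1_x_at read 34231 and 23926 of a summed 80224 on the first control array. On the first heat array they read 61145 and 36678 of 108747. Inside the cluster the sums on those arrays were 34020 and 42422, of which TaAffx.128414.1.A1_x_at read 23926 and 36678. The 7 bright plain _at members summed to 12969 and 10532 in control and 6798 and 7016 in heat, lower on both heat arrays.

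The annotation offers few partners of Rubisco to set beside these values. The list of nuclear Rubisco partners (small subunit and activase) matched 0 probe sets by name, as did those of plastid NDH genes, plastid gene expression genes, mitochondrial genes and floral MADS-box genes. The list of plastid photosystem, cytochrome and ATP synthase genes matched 1 probe set through the synonym atpA, but the gene table places that gene on a nuclear chromosome, and it was not called (log2 0.32). Of the 4 probe sets of nuclear Calvin cycle enzymes 0 rose and 1 fell (median log2 -0.20). Of 27 probe sets of seed storage and grain proteins, markers of another organ, 0 rose and 0 fell in limma, 3 had an unadjusted p below 0.05, and 5 reached the median brightness. Over all probe sets 16.2% were called in limma, and 16363 of 61115 had an unadjusted p below 0.05. Within the 3 dimmer classes 1.78% of all were called.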

How the data were processed

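The deposited intensities are linear MAS5 signals, 1 per probe set and array, made by the authors with Affymetrix Expression Console 1.1 and MAS5, per the submitters' processing notes. Scaling settings were not stated. Of 61290 probe sets, 111 AFFX and 64 reporter controls were left out. Signals below 1 were set to 1 and log2 was taken with no further normalization. The 61115 probe sets left entered 1 linear model (limma 3.58.1, R 4.3.3; trended eBayes; 2 residual and 5.48 prior degrees of freedom; two-sided tests; Benjamini-Hochberg adjustment). The fit was checked on simulated arrays drawn from its own trended variance, which cannot show whether that variance suits these arrays. Arrays give no read depth, and their number limits the precision; no detection calls were used, and a low signal does not show absence.

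Groups came from the sample titles. Same-numbered arrays did not deviate together over all probe sets (r = -0.00674; 0.147 over the members), and the labels state no shared batch, so no block was used. Members came from the identifiers and the platform annotation, which is old. Members and lists were chosen with earlier results of these data known. Probe sets named are those assigned to rbcl, the 6 brightest of the cluster and its 6 largest rises and falls among called ones of at least median brightness; any others were named after their values were seen. Alternatives changed the filter, scaling, offset, moderation, shared probe sets, block and arrays.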

Additional observations from a re-analysis of the deposited data

How the results depend on the processing

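With 2 arrays per group the calls lean on the pooled variance. Over all probe sets, eBayes without the trend made 0 calls in limma (12329 at an unadjusted p below 0.05) and unmoderated t statistics 218 higher and 127 lower, against 3917 and 5978. Among the 63 members both gave 0 higher and 0 lower, with 13 and 12 at an unadjusted p below 0.05, and among those assigned to rbcl also 0 and 0. In 2 fits chosen after seeing the data, the filter at the median was combined with these. Without trend it gave 3 higher and 5 lower members, and unmoderated 0 higher and 1 lower, with 0 and 0 of those assigned to rbcl. Of all probe sets, 24.8% were called in the first of these 2 fits and 8.49% in the second. The filter leaves 30 members, and fewer members alone shifts the median log2 fold change, from -0.19 to -0.56 (rbcl -0.83), and from -0.19 to -0.59 (rbcl -0.73) with the strict filter. Leaving out shared probe sets removes the 8 brightest members, so 0 members and 0 rbcl probe sets were higher. Leaving out each array in turn gave a median log2 fold change of -0.33 to -0.12 over the members and -0.34 to -0.18 for rbcl. Fewer members were called lower without control replicate 1 than without control replicate 2, although about as many of all probe sets were lower in both fits. With the replicate number as a block, 3 members were higher and 12 lower (18.2% of all probe sets were called). The numbers mark no stated pairing. In the other fits (quantile normalization, median centring, cyclic loess, offset of 64) the counts of higher and lower members stayed within 1.5 times. The medians came nearer 0, in that order -0.12, -0.07, -0.11 and -0.05 over the members and -0.11, -0.10, -0.07 and -0.08 for rbcl. Over all probe sets the median moved the same way, from -0.12 to -0.04, -0.00285, -0.01 and -0.05.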
